A study of Mus musculus with 16 samples.

Results

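The Hox genes of the Hoxa, Hoxb, Hoxc and Hoxd clusters were taken as all protein-coding genes of the GENCODE vM1 annotation of mm9 whose symbol is Hox, a cluster letter from a to d and a number. There were 39 such genes among 22271 protein-coding genes, 11 in Hoxa, 10 in Hoxb, 9 in Hoxc and 9 in Hoxd. They encode homeodomain transcription factors that give cells of the body axis and limbs their regional identity. Within a cluster all genes are read from the same strand, and genes of paralog group 1 lie at the 3′ end and act in front of those of group 13 at the 5′ end. Trithorax complexes keep chosen Hox genes active and Polycomb complexes keep the others silent, so that a skeletal cell carries a lasting record of its body region, and the neural crest bones at the front of the skull lie ahead of the domains in which Hox genes are active.

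The data were lists of regions bound in chromatin immunoprecipitation followed by sequencing. The cells were MC3T3-E1, an established line of mouse pre-osteoblasts derived from the skull vault. Differentiated cells were kept for 15 days with ascorbic acid at 50 µg/mL and glycerol-2-phosphate at 10 mM, agents that drive osteoblasts to mineralise, and their matrix was removed before the assay. Undifferentiated cells were grown without these agents, and both states were used at passages 5 to 12 and given ethanol vehicle for 3 h. There was 1 list for each of 7 antibodies in each state, 14 lists in all, and each held only peaks merged over biological replicates. The antibodies were against H3K4me3, found at active promoters, H3K9Ac and H4K5Ac, acetylations of active regulatory DNA, H3K4me1, found at enhancers and around promoters, and H3K36me3, laid down along transcribed gene bodies. The others were against RUNX2, the runt factor required for osteoblast formation, and C/EBPβ, a leucine zipper factor of osteoblasts and adipocytes. Replicates are not visible separately and a list holds no read counts, so depth is unknown, no difference between states has a replicate check, and no test was made. All values are from 1 line, and intervals given for shares are exact Clopper-Pearson 95% intervals that cover counting error only. They treat genes as independent, which neighbouring Hox genes that share a region are not.

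The state of the differentiated H3K36me3 sample came from its title and source, because its other labels were garbled, and for the antibody labelled H4K5Ac the protocol writes H3K5Ac. Promoter H3K4me3 was at 5 of 9 osteoblast markers in differentiated cells, beside 40.0% of all genes, and at 5 of 9 in undifferentiated cells, beside 34.9%. Spp1 was called in differentiated and Sp7 in undifferentiated cells alone, and Bglap had no promoter mark in either. H3K36me3 covered 86.5% of Ibsp in differentiated and 0 in undifferentiated cells. Of the 23 markers of cartilage, fat, muscle, blood, nerve and endothelium, Sox9 alone had promoter H3K4me3, in both states. H3K9Ac was at the promoters of Sox9, Col2a1 and Pax6 in both states, and at none of the others. H3K36me3 covered 100% of Cd68 in both states. It covered 80.2% of Sox9 in differentiated and 93.5% in undifferentiated cells, 91.4% and 100% of Col10a1, and 0 and 66.1% of Col2a1. Pax6 had 31.8% and 24.0% and Csf1r 12.2% and 16.5%, in the same order, and the rest had none. Of the osteoblast markers, Alpl and Bglap had no H3K36me3 in either state. List lengths differed between states. H3K9Ac had 23671 regions in differentiated and 14975 in undifferentiated cells, H4K5Ac 33439 and 41592, and RUNX2 6272 and 12674, in the same order. H3K36me3 was close to even, covering 350.2 Mb in differentiated and 352.4 Mb in undifferentiated cells. The share of these length differences in the results below was not tested.

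Peaks of RUNX2 and C/EBPβ inside the clusters are printed first, because the states differ in them, with fewer peaks in differentiated cells. In mm9, Hoxa lies on the minus strand of chromosome 6, and Hoxb spans chr11:96055630-96229570, Hoxc chr15:102751534-102867274 and Hoxd chr2:74506367-74603200 on the plus strand. The peaks are shown whole, on the plus strand of mm9. Capitals mark TGNGGT in RUNX2 peaks and TTGCNNAA in C/EBPβ peaks, the core letters of the factors' known motifs, on either strand, so that TGTGGT on the other strand reads ACCACA. Of all RUNX2 peaks of undifferentiated cells 72.4% held TGNGGT, and of all C/EBPβ peaks 44.8% in differentiated and 41.1% in undifferentiated cells held TTGCNNAA. The first 3 are RUNX2 peaks listed in undifferentiated cells alone.
RUNX2 in a Hoxb3 intron, chr11:96195608-96195808: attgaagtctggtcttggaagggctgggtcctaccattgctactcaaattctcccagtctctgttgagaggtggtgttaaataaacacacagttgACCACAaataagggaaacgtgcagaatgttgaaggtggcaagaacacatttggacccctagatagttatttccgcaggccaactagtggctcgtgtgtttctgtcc
RUNX2 before Hoxc12, chr15:102765470-102765670: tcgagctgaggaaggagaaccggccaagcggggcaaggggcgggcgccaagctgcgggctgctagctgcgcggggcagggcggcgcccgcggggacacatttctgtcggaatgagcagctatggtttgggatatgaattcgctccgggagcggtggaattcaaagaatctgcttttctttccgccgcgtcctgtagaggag
RUNX2 in a Hoxc6 intron, chr15:102832527-102832727: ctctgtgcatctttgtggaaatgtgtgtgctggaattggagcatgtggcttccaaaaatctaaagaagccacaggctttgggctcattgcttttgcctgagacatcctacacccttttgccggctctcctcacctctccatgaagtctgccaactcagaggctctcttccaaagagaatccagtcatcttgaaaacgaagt
The next is a C/EBPβ peak of differentiated cells, with an overlapping peak in undifferentiated cells.
C/EBPβ upstream of Hoxb9, chr11:96121599-96121799: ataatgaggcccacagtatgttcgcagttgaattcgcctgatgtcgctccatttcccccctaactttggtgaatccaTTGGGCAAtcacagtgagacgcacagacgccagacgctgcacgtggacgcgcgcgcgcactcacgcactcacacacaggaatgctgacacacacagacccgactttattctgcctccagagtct
The last 2 are C/EBPβ peaks listed in undifferentiated cells alone.
C/EBPβ near Hoxa4, chr6:52138706-52138906: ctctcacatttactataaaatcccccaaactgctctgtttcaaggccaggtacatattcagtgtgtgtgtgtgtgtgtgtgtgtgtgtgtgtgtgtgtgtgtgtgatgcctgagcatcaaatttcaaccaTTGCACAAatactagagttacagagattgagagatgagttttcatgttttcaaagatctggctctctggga
C/EBPβ in a coding exon of Hoxc10, chr15:102801220-102801420: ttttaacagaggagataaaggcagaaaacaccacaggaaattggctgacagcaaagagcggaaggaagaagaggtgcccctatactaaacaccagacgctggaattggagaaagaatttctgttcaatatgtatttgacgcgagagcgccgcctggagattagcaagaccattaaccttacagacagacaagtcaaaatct
Of all peaks in or within 10 kb of the clusters, printed or not, TGNGGT stood in 3 of 5 RUNX2 peaks, all of undifferentiated cells. TTGCNNAA stood in 1 of 2 C/EBPβ peaks of differentiated cells and in 3 of 5 of undifferentiated cells. A match is a run of letters, not a shown binding site.

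No RUNX2 peak lay in or within 10 kb of any Hox cluster in differentiated cells, against 5 in undifferentiated cells. Hoxa had 1 of the 5, Hoxb 2, Hoxc 2 and Hoxd 0. One of the Hoxb peaks lay in an intron of Hoxb3, 6332 bp past the nearest of its starts, and the other in an exon of Gm53, 9684 bp before Hoxb9. The Hoxc peaks lay 1618 bp before the start of Hoxc12 and 1667 bp past a start of Hoxc6, which acts in the thoracic region. The clusters with their 10 kb margins held 8.74 undifferentiated RUNX2 peaks per Mb, against 4.95 over the genome, and 0 differentiated peaks per Mb, against 2.45 over the genome. Of the 5 undifferentiated peaks 0 were shared with differentiated cells, beside 36.4% of all undifferentiated RUNX2 peaks.

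Most of the 5 sites under RUNX2 peaks of undifferentiated cells had acetylation and H3K4me1 in both states. H4K5Ac regions covered 4 of the 5 sites in differentiated cells and all 5 in undifferentiated cells, and H3K4me1 covered all 5 in both. H3K9Ac was present at 4 sites in differentiated and 3 in undifferentiated cells. The site 9684 bp before Hoxb9 was the site without H4K5Ac in differentiated cells. The Hoxc6 site was inside an H3K4me3 region in undifferentiated cells alone. The share of all RUNX2 peaks inside these marks was not counted, so the counts are not shown to be particular to Hox sites. Of all bases of the 4 clusters, H4K5Ac covered 39.6% in differentiated and 55.6% in undifferentiated cells. H3K4me1 covered 49.2% and 49.8%, and H3K9Ac 27.5% and 19.3%, in the same order.

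C/EBPβ had 2 peaks in or within 10 kb of the clusters in differentiated cells and 5 in undifferentiated cells. Both peaks of differentiated cells were also found in undifferentiated cells. The one in an intron of Gm53, 11072 bp before Hoxb9 in differentiated cells, was inside H3K4me1 in both states and inside H4K5Ac in undifferentiated cells alone. The 3 peaks listed in undifferentiated cells alone included those 2896 bp past a start of Hoxa4, and 4093 bp past the start of Hoxc10, which acts in lumbar motor neurons and the hindlimb. Over the whole lists, 62.1% of differentiated and 43.1% of undifferentiated C/EBPβ peaks were shared with the other state. Hoxd had no RUNX2 and no C/EBPβ peak in either state.

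With each peak given to the gene of the nearest transcription start site (TSS) within 100 kb, RUNX2 was assigned to 2 Hox genes in differentiated cells, Hoxb1 among them, beside 15.0% of all genes. In undifferentiated cells it was assigned to 5, the same 2 with Hoxb3, Hoxc6 and Hoxc12, beside 27.3% of all genes. Thus 2 Hox genes had RUNX2 in both states (13.2% of all genes), 0 in differentiated cells alone (1.81%), 3 in undifferentiated cells alone (14.1%) and 34 in neither (70.9%). The shares of Hox genes were 5.13% in differentiated and 12.8% in undifferentiated cells. Each peak counts for 1 gene and the 39 Hox genes lie close together, in spans of 492 kb in all, so these shares are not densities. By density, undifferentiated RUNX2 peaks were at 8.74 per Mb in the clusters with their margins, against 4.95 over the genome. Differentiated peaks were at 0 against 2.45. C/EBPβ was assigned to 1 Hox gene in differentiated cells, beside 21.8% of all genes, and to 4 in undifferentiated cells, Hoxa4, Hoxb1 and Hoxc10 among them, beside 27.7%. For C/EBPβ 1 Hox gene was assigned in both states (18.3% of all genes), 0 in differentiated cells alone (3.51%), 3 in undifferentiated cells alone (9.44%) and 35 in neither (68.8%). C/EBPβ density in the clusters with their margins was 3.50 peaks per Mb in differentiated cells, against 4.24 over the genome. In undifferentiated cells it was 8.74, against 6.11 over the genome. A RUNX2 peak kept in both states lay 45.5 kb past the 3′ end of Hoxb, where 2 further RUNX2 peaks, 33.4 and 39.6 kb away, were listed in undifferentiated cells alone.

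Promoter marks were scored by whether a region overlapped the 1 kb to either side of any TSS of a gene. H3K4me3 was called at 5 of the 39 Hox genes in differentiated cells, beside 40.0% of all genes, and at 2 in undifferentiated cells, beside 34.9%. These are 12.8% of the Hox genes (4.30 to 27.4%) in differentiated cells and 5.13% (0.627 to 17.3%) in undifferentiated cells. Hoxa3, Hoxa6, Hoxa10 and Hoxc13 were called in differentiated cells alone, beside 6.55% of all genes, and Hoxc9 in undifferentiated cells alone, beside 1.45%. Hoxc6 was called in both states, beside 33.4%, and 33 Hox genes in neither, beside 58.6%. No gene of Hoxb or Hoxd was called in either.

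The H3K4me3 of Hoxa came from 2 regions, both in differentiated cells. Hoxa3, which patterns the pharyngeal arches, and its neighbour Hoxa6 shared a 3506 bp region at chr6:52160830-52164335 that covers a TSS of each, so they are not independent. Hoxa10, a limb and uterus gene known to activate bone genes in osteoblasts, had a 1779 bp region at chr6:52189172-52190950 over its most upstream TSS. In undifferentiated cells the nearest H3K4me3 region was 219764 bp from a Hoxa10 start.

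In Hoxc the undifferentiated regions were the wider ones. The whole H3K4me3 list likewise had fewer regions over more bases in undifferentiated cells, 6920 over 26.40 Mb. In differentiated cells it had 8196 over 21.76 Mb. Hoxc6 had a region of 2557 bp in differentiated cells and of 11910 bp in undifferentiated cells. At Hoxc9, a gene of thoracic identity, the region measured 2477 bp in differentiated cells and began 3351 bp past a start, against 5360 bp and 765 bp in undifferentiated cells. Its change of call is thus a region that was narrower and farther from the start, inside the same gene. Hoxc13, a regulator of hair and nail, had a 1263 bp region in differentiated cells, 198 bp from its start, and the gene Gm17649 beside it shared that call. All 7 H3K4me3 regions of the clusters ranked below the middle of their own list by the authors' deposited score, at the 0.756th to 32.2nd percentile in differentiated cells and at 7.70 and 38.3 in undifferentiated cells. With the upper 50% of each list alone, 0 Hox genes had promoter H3K4me3 in either state, beside 21.7% of all genes in differentiated and 18.6% in undifferentiated cells.

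The 200 bases before the start nearest to the H3K4me3 region are shown for the gene called in differentiated cells alone at a region of its own, Hoxa10, and for the gene called in undifferentiated cells alone, Hoxc9. Hoxa5, which had none of the 4 promoter marks in either state, is shown beside them, from its start. Each runs 5′ to 3′ on the gene's strand of mm9, with CG in capitals, since promoters rich in CG are the usual carriers of H3K4me3.
Hoxa10, chr6:52190854-52191053, minus strand: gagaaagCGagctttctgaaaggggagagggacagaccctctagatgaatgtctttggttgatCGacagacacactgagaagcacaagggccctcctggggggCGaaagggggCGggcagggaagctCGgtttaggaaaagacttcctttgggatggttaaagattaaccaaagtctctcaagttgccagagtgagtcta
Hoxc9, chr15:102807263-102807462, plus strand: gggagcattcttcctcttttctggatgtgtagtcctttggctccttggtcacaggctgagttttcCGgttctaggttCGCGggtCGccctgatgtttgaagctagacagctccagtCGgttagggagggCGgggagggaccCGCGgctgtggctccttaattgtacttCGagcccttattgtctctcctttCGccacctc
Hoxa5, chr6:52154587-52154786, minus strand: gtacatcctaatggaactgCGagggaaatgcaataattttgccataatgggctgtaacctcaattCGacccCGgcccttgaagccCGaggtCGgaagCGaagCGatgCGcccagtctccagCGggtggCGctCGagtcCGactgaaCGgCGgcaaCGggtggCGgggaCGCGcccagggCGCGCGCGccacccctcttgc
They hold 5, 10 and 22 CG. The median was 9 over the 39 Hox genes and 7.00 over all genes, counted in the 200 bases before the most upstream start, and 100% of Hox genes and 90.4% of all genes had at least 1 there. Over the 1 kb to each side of all starts, observed over expected CpG had a median of 0.560 in Hox genes and 0.378 in all genes, and GC content one of 55.1% and 49.5%. The Hox gene with the lowest ratio was Hoxb4 at 0.258, and the one with the highest was Hoxd8 at 0.894. Hoxd had the highest median ratio, 0.705, against 0.593 in Hoxa and 0.538 in Hoxc, with Hoxb below these, and it had no H3K4me3. Base composition and the marks were set side by side without a test.

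**Figure D1:**
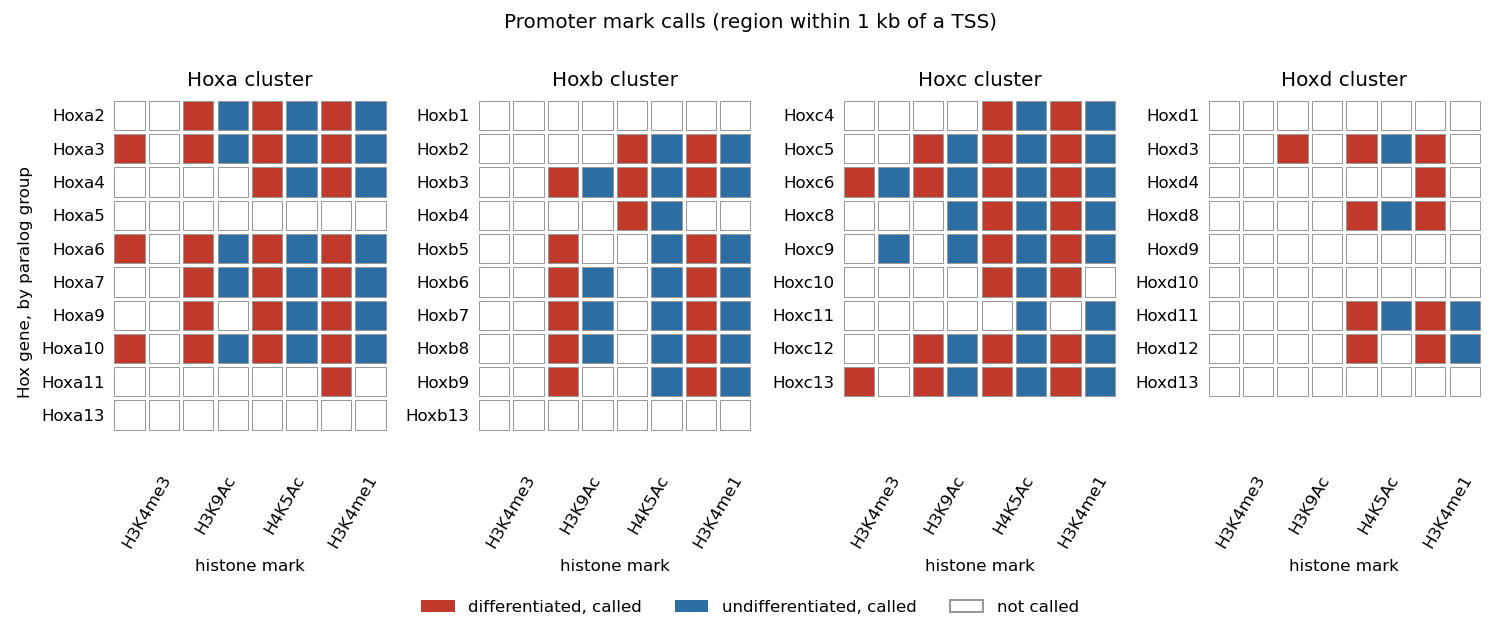
Promoter calls of the Hox genes shown. Rows are genes by paralog group in each cluster, and each mark has a column for differentiated cells (red where called) left of undifferentiated cells (blue where called). H3K4me3 is called at 5 genes in differentiated and 2 in undifferentiated cells, and Hoxb5 to Hoxb9 have H4K5Ac in undifferentiated cells alone.

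Acetylation reached far more Hox promoters than H3K4me3. H3K9Ac was called at 18 Hox genes in differentiated cells, beside 52.4% of all genes, and at 16 in undifferentiated cells, beside 49.1%. The shares of Hox genes, 46.2% and 41.0% in the same order, were near those of all genes. Of the Hox genes with H3K9Ac, 5 of 18 also had H3K4me3 in differentiated cells, 27.8% (9.69 to 53.5%), and 2 of 16 in undifferentiated cells, 12.5% (1.55 to 38.3%). Over all genes with H3K9Ac the shares with H3K4me3 were 76.3% in differentiated and 70.9% in undifferentiated cells. H3K9Ac without H3K4me3 was found at 13 Hox promoters in differentiated cells, beside 12.4% of all genes, and at 14 in undifferentiated cells, beside 14.3%. H3K9Ac, H4K5Ac and H3K4me1 stood together at 13 in differentiated cells, beside 50.5%, and at 16 in undifferentiated cells, beside 47.7%.

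H3K9Ac calls differed between states at 6 Hox genes. Hoxa9, Hoxb5, Hoxb9 and Hoxd3 had it in differentiated cells alone, beside 3.39% of all genes, and Hoxc8 and Hoxc9 in undifferentiated cells alone, beside 0.157%. It was at 14 in both states, beside 49.0%, and at 19 in neither, beside 47.5%. Hoxb5 and Hoxb9 had a TSS inside regions of 14108 and 15710 bp in differentiated cells, and in undifferentiated cells the nearest region was 6174 bp from Hoxb5 and 12124 bp from Hoxb9. Hoxd3, which shapes the first neck vertebrae, had a TSS inside a 1698 bp region in differentiated cells and none within 2741 bp in undifferentiated cells. At Hoxa9 the nearest region was 553 bp from a TSS in differentiated and 3478 bp in undifferentiated cells. Hoxc8, which acts in the thoracic skeleton and in cartilage, had its nearest region 1418 bp from the start in differentiated cells and lay inside a 16735 bp region in undifferentiated cells. The Hoxc9 call turned on a distance of 1213 bp in differentiated and 487 bp in undifferentiated cells, to either side of the 1 kb limit.

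H4K5Ac was called at 23 Hox genes in differentiated cells, beside 54.2% of all genes, and at 28 in undifferentiated cells, beside 55.4%. Hoxb5, Hoxb6, Hoxb7, Hoxb8 and Hoxb9 and, outside Hoxb, Hoxc11 had it in undifferentiated cells alone, beside 2.39% of all genes. Hoxd12 had it in differentiated cells alone, beside 1.18%, with distances to the nearest region of 713 bp in differentiated and 1095 bp in undifferentiated cells. There were 22 Hox genes with H4K5Ac in both states, beside 53.0%, and 10 in neither, beside 43.4%. H3K4me1 was called at 29 Hox genes in differentiated cells, beside 58.9%, and at 25 in undifferentiated cells, beside 57.1%. Hoxa11, Hoxc10, Hoxd3, Hoxd4 and Hoxd8 had H3K4me1 in differentiated cells alone, beside 3.21%, and Hoxc11 in undifferentiated cells alone, beside 1.40%. There were 24 in both states, beside 55.7%, and 9 in neither, beside 39.7%. The Hoxc10 and Hoxd8 calls were near the limit, at 961 and 882 bp in differentiated cells, against 1023 and 1251 bp in undifferentiated cells. With 2500 bp to each side of a TSS the H3K4me1 counts were 30 in differentiated and 31 in undifferentiated cells, which turns their order round.

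Some Hox genes had none of the 4 promoter marks, 9 in differentiated cells, beside 40.1% of all genes, and 10 in undifferentiated cells, beside 40.8%. Hoxa5, Hoxa13, Hoxb1, Hoxb13, Hoxd1, Hoxd9, Hoxd10 and Hoxd13 were bare in both states. Of these, Hoxa13, Hoxb13 and Hoxd13, of the group that forms digits and the hind end, are the 5′ ends of their clusters, and Hoxb1 and Hoxd1 the 3′ ends. Hoxc13, the group 13 gene of Hoxc, had all 4 marks in differentiated cells and H3K9Ac, H4K5Ac and H3K4me1 in undifferentiated cells. Its H3K4me3 region in differentiated cells ranked at the 0.756th percentile of its list by the deposited score.

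At Hoxb5 to Hoxb9, genes of the trunk, H4K5Ac was listed in undifferentiated cells alone. Between chr11:96102148 and chr11:96169249, a stretch of 67.1 kb with all 5 genes, differentiated cells had no H4K5Ac region. In undifferentiated cells H4K5Ac covered 100% of Hoxb5, Hoxb6, Hoxb8 and Hoxb9 with the 1 kb before each, and 43.5% of Hoxb7 likewise. H3K9Ac ran the other way there. It covered 70.9% of Hoxb5 with its 1 kb in differentiated cells and 0 in undifferentiated cells, 100% and 43.5% of Hoxb6, 37.1% and 29.7% of Hoxb7, 100% and 38.0% of Hoxb8, and 100% and 0 of Hoxb9, with differentiated cells first in each. H3K4me1 covered 72.0% of the section of groups 5 to 8 in differentiated and 64.4% in undifferentiated cells. It covered 68.3% of Hoxb8 with its 1 kb in differentiated and 2.67% in undifferentiated cells. Hoxb5 likewise had 72.3% and 69.6%, Hoxb7 22.1% and 16.9%, and Hoxb6 and Hoxb9 100% in both states. Under all 5 alternative promoter settings 0 of these 5 genes had promoter H4K5Ac in differentiated cells and 5 of 5 in undifferentiated cells. The settings could not alter the 0, because the nearest regions of differentiated cells lay 5341 to 30624 bp from these starts. The calls of undifferentiated cells came from a region of 33824 bp over Hoxb7, Hoxb8 and Hoxb9 and one of 24495 bp over Hoxb5 and Hoxb6. The 5 genes are thus not independent. The whole H4K5Ac list covered 10.3% of the genome in differentiated and 13.3% in undifferentiated cells, and whether the longer list bears on the gap was not tested. Toward the 3′ end, H4K5Ac covered 57.0% of the section of groups 1 to 4 in differentiated and 53.6% in undifferentiated cells.

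**Figure D2:**
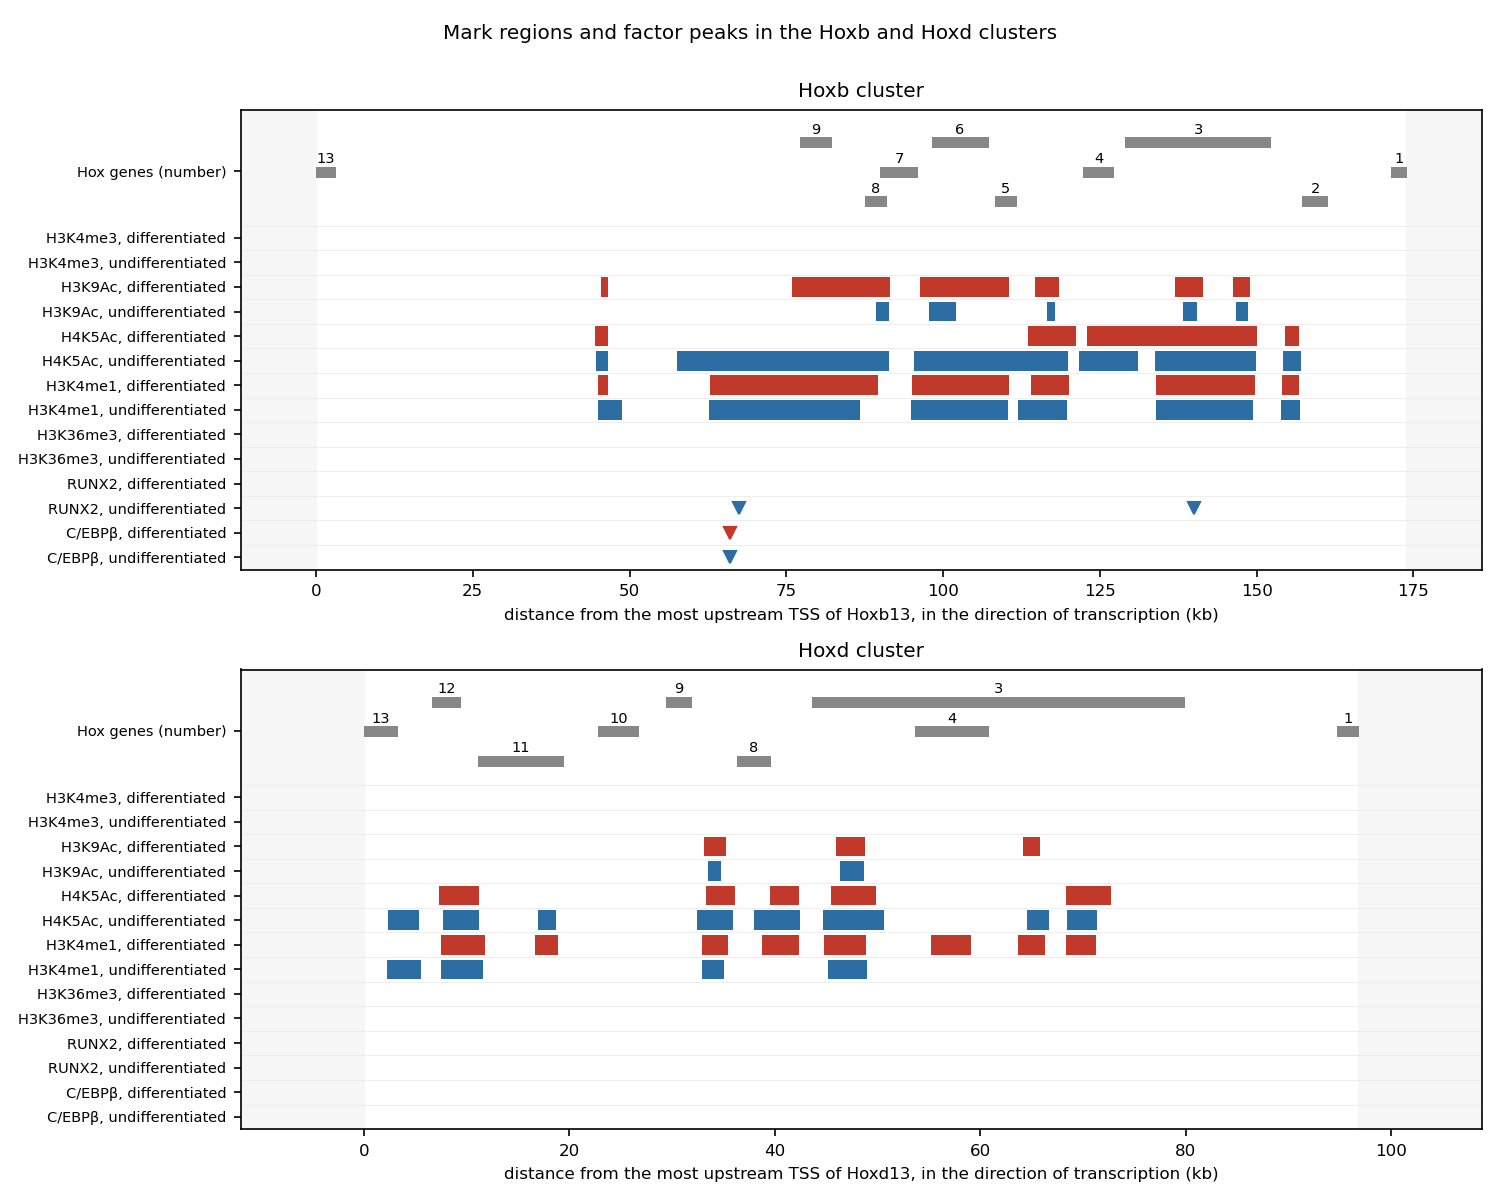
Mark regions (bars) and factor peaks (triangles) along the Hoxb and Hoxd clusters, by distance in kb from the most upstream TSS of the group 13 gene in the direction of transcription. Differentiated cells (red) are above undifferentiated cells (blue) for each antibody, grey bars are genes with their numbers, and shading marks DNA outside the cluster. The H4K5Ac gap of 67.1 kb in differentiated cells spans Hoxb5 to Hoxb9, and neither cluster has H3K4me3 or H3K36me3.

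H3K36me3, the mark of transcribed gene bodies, divided the clusters. A gene was counted when regions covered at least 50% of its annotated body. In differentiated cells 6 Hox genes were counted, all in Hoxa, beside 40.7% of all genes. In undifferentiated cells 11 were counted, 4 of them in Hoxc, also beside 40.7%. All 10 Hoxb genes and all 9 Hoxd genes had 0% cover in both states. Of all genes, 49.9% had 0% cover in differentiated and 49.6% in undifferentiated cells.

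The Hoxa genes named here were covered alike in the states. Hoxa4 and Hoxa5 were covered over 100% of their bodies in both. Hoxa2, which specifies the skeleton of the pharyngeal arches, was covered over 84.5% in differentiated and 91.6% in undifferentiated cells. Hoxa3 had 81.5% in differentiated and 85.1% in undifferentiated cells, Hoxa6 86.6% and 100%, Hoxa9 28.3% and 35.3%, and Hoxa10 66.2% and 69.1%, in that order. Hoxa7, Hoxa11 and Hoxa13 had 0% in both. The annotated Hoxa3 gene of 49981 bp contains Hoxa4, Hoxa5 and Hoxa6, and 1 region of 24500 bp in differentiated and of 25743 bp in undifferentiated cells lay over these genes, so their values are not independent. Hoxa4 and Hoxa5 had no H3K4me3 or H3K9Ac at their promoters, and Hoxa5 had neither H4K5Ac nor H3K4me1 there.

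In Hoxc the mark was nearly absent in differentiated cells. Hoxc5 and Hoxc8 were each covered over 0% of the body in differentiated and 100% in undifferentiated cells. Hoxc4 had 0% in differentiated and 82.2% in undifferentiated cells, and Hoxc13 had 0% and 83.6%, in that order. Hoxc9 had 0% in differentiated and 20.2% in undifferentiated cells, and Hoxc6 had 11.8% and 27.5%. Hoxc10, Hoxc11 and Hoxc12, between Hoxc9 and Hoxc13, had 0% in both. Only 1 H3K36me3 region, of 2840 bp, overlapped Hoxc in differentiated cells, against 4 of 9731 to 22317 bp in undifferentiated cells. The cover of the whole cluster was 2.45% in differentiated and 42.7% in undifferentiated cells, while that of the genome was 13.7% and 13.8%.

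Over all genes, calls at 50% of the body differed between states about equally in either direction, with 1.75% of genes called in differentiated cells alone and 1.66% in undifferentiated cells alone. Of the Hox genes 0 were called in differentiated cells alone and 5 in undifferentiated cells alone, Hoxc4, Hoxc5, Hoxc8 and Hoxc13 among them. The other Hox genes were 6 called in both states, beside 39.0%, and 28 in neither, beside 57.6%. The 4 Hoxc regions of undifferentiated cells ranked at the 42.1st to 48.7th percentile of their list by the deposited score. With the upper 50% of each list alone, 0 Hoxc genes were counted in either state, beside 35.3% of all genes in differentiated and 35.5% in undifferentiated cells. With the body taken from the first to the last coding base, Hoxc4 and Hoxc5 differed by -100 points, Hoxc8 by -100 points and Hoxc13 by -81.1 points, as differentiated minus undifferentiated. By this measure Hoxc6 was covered over 53.2% in differentiated and 100% in undifferentiated cells, so that 1 Hoxc gene passed 50% in differentiated and 5 in undifferentiated cells.

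**Figure D3:**
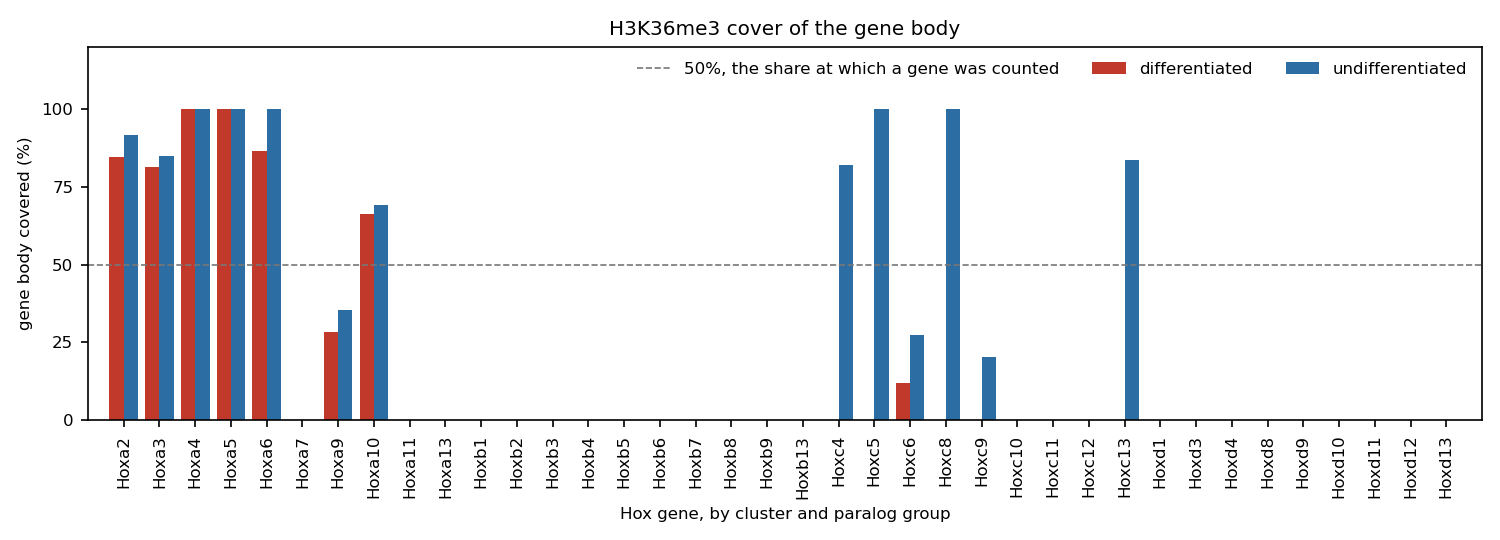
Share of each gene body, in percent, under H3K36me3 regions for the Hox genes shown, by cluster and paralog group. Red bars are differentiated and blue bars undifferentiated cells, and the dashed line is the 50% used for a call. Hoxa2 to Hoxa6 and Hoxa10 are above it in both states, Hoxc4, Hoxc5, Hoxc8 and Hoxc13 in undifferentiated cells alone, and Hoxb and Hoxd genes are at 0.

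As a share of the cluster span, H4K5Ac, H3K4me1 and H3K9Ac covered more of Hoxa and Hoxc than of Hoxb and Hoxd in both states. H4K5Ac covered 53.2% of Hoxa in differentiated and 58.2% in undifferentiated cells, and 70.7% and 83.3% of Hoxc. It covered 22.4% of Hoxb in differentiated and 50.9% in undifferentiated cells, and 18.8% and 28.2% of Hoxd. H3K4me1 covered 61.2% of Hoxa in differentiated and 58.9% in undifferentiated cells, 39.1% and 40.1% of Hoxb, and 71.8% and 86.3% of Hoxc, against 13.4% of the genome in both states. H3K4me1 covered 27.1% of Hoxd in differentiated and 13.9% in undifferentiated cells. H3K9Ac covered 29.2% of Hoxa in differentiated and 15.3% in undifferentiated cells, 24.3% and 6.90% of Hoxb, 48.1% and 54.5% of Hoxc, and 6.84% and 3.70% of Hoxd, against 3.38% and 2.05% of the genome. H3K9Ac thus covered more bases in differentiated cells in Hoxa, Hoxb and Hoxd, as over the genome, and fewer in Hoxc.

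**Figure D4:**
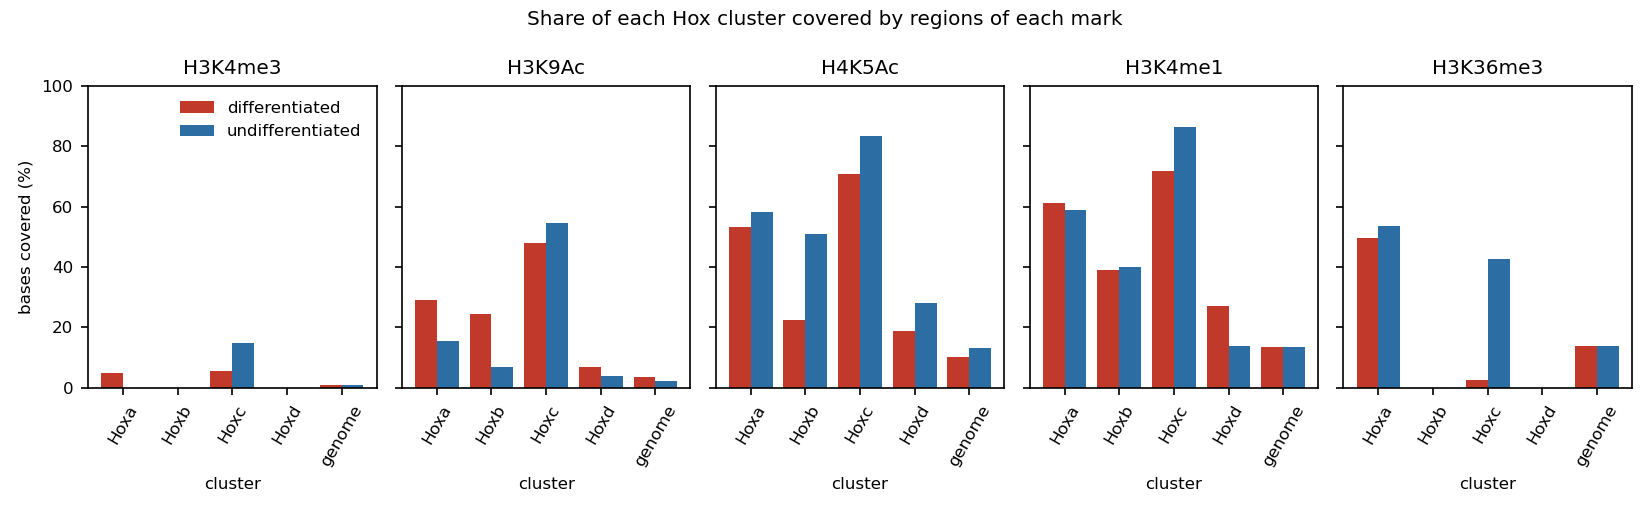
Percentage of the bases of each Hox cluster, and of the genome outside assembly gaps, covered by regions of each mark. Red bars are differentiated and blue bars undifferentiated cells. H3K36me3 covers 2.45% of Hoxc in differentiated and 42.7% in undifferentiated cells, and H4K5Ac covers 22.4% and 50.9% of Hoxb.

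Regions of Hoxa and Hoxc differed in number and width. Of 10 H3K9Ac regions in Hoxa in differentiated cells, 5 overlapped no region of undifferentiated cells, and all 5 regions of undifferentiated cells were also found in differentiated cells. Over the 4 clusters there were 29 H3K9Ac regions in differentiated and 19 in undifferentiated cells, and none of the 19 was without a partner. The whole lists held 23671 and 14975 H3K9Ac regions in the same order, and the share of them without a partner was not counted. At promoters, 3.39% of all genes had H3K9Ac in differentiated cells alone and 0.157% in undifferentiated cells alone. The widest H3K9Ac region was over Hoxc5 and Hoxc6, at 19791 bp in differentiated and 19754 bp in undifferentiated cells, and it ranked at the 95.5th and 91.4th percentile of its list in that order. In Hoxc, H4K5Ac formed 10 regions of up to 26359 bp in differentiated cells and 2 regions of 50412 and 63275 bp in undifferentiated cells.

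**Figure D5:**
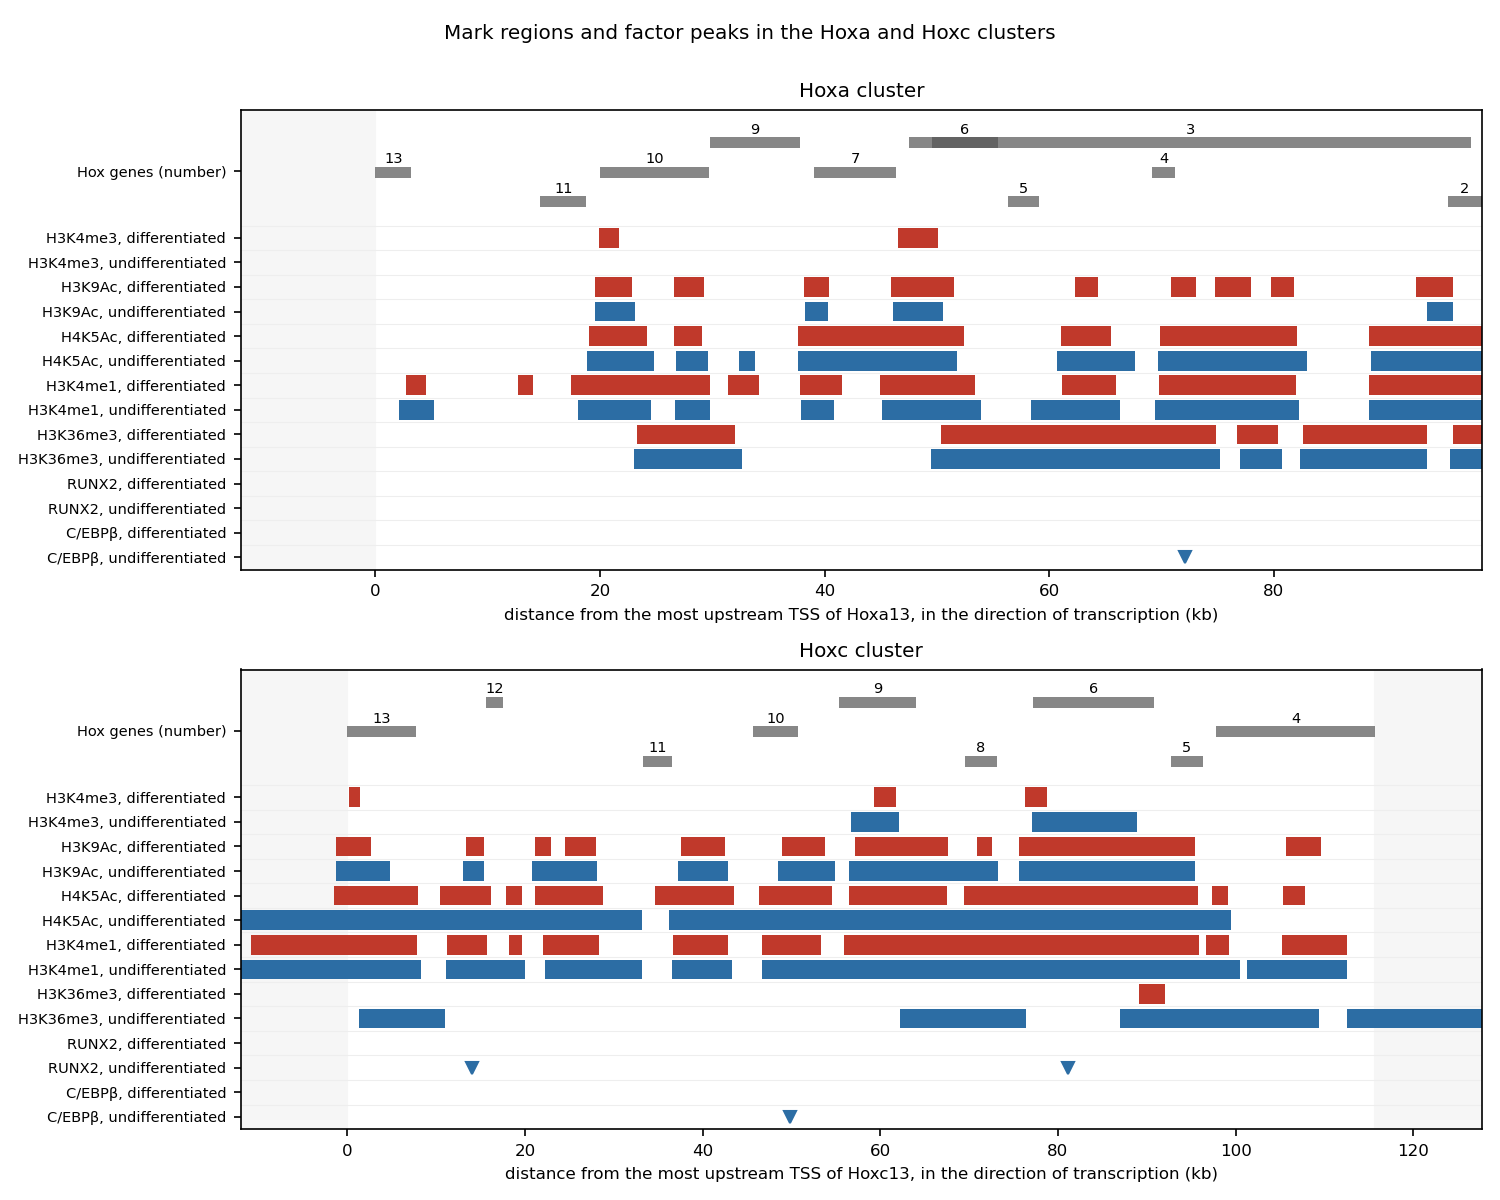
Mark regions (bars) and factor peaks (triangles) along the Hoxa and Hoxc clusters, drawn by distance in kb from the most upstream TSS of the group 13 gene in the direction of transcription. Differentiated cells (red) are above undifferentiated cells (blue) for each antibody, grey bars are genes with their numbers, and shading marks DNA outside the cluster, with the Hoxa map ending at Hoxa2. H3K36me3 lies over Hoxa2 to Hoxa6 and Hoxa10 in both states, and over Hoxc in undifferentiated cells apart from 1 region of 2840 bp in differentiated cells.

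The marks varied with position along a cluster. In Hoxa, H3K36me3 covered 75% of the section of groups 1 to 4 in differentiated and 81.1% in undifferentiated cells, 43.8% and 48.1% of groups 5 to 8, and 23.2% and 25.4% of groups 9 to 13. The first of these sections overlaps the next, because the annotated Hoxa3 gene extends past Hoxa5 and Hoxa6. H3K9Ac in Hoxa ended before Hoxa11 in both states, leaving the last 19.6 kb with Hoxa11 and Hoxa13 bare in differentiated cells. In Hoxc, H3K9Ac covered 22.2% of groups 1 to 4, Hoxc4 alone, in differentiated and 0 in undifferentiated cells. It covered 80.0% of groups 5 to 8 in differentiated and 87.4% in undifferentiated cells, and 41.6% and 53.3% of groups 9 to 13. In Hoxd, H3K9Ac was absent from groups 9 to 13 in both states, a stretch of 33.1 kb from Hoxd13 to Hoxd9 in differentiated cells. H3K4me1 over Hoxd4 with its 1 kb was 47.4% in differentiated and 0 in undifferentiated cells.

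The clusters were compared with the 100 kb on each side of them. On the 3′ side of Hoxa, H3K9Ac covered 16.1% in differentiated and 0 in undifferentiated cells, and H4K5Ac 64.0% and 50.3%, with H3K4me1 at 60.6% and 60.8%. On its 5′ side, beyond Hoxa13, H4K5Ac covered 3.63% in differentiated and 6.36% in undifferentiated cells. On the 5′ side of Hoxc, H4K5Ac covered 32.8% in differentiated and 88.1% in undifferentiated cells. Evx1 and Evx2, homeobox genes at the 5′ ends of Hoxa and Hoxd, had no H3K4me3, H3K9Ac, H4K5Ac or H3K36me3 in either state. Unlike the Hoxd genes between them, Lnp on the 5′ side and Mtx2 on the 3′ side of Hoxd had all 4 promoter marks in both states. Their H3K36me3 cover was 90.6% in differentiated and 89.9% in undifferentiated cells for Lnp, and 79.6% and 80.1% for Mtx2.

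The genes whose proteins bind with Hox proteins or set the marks of Hox clusters were listed beside them. Of 9 Hox cofactor genes, of the Pbx, Meis and Pknox families, 8 had promoter H3K4me3 in both states, Pbx4 being without it. Pbx4 had H3K9Ac in differentiated cells alone. RUNX2 was assigned to 6 of these 9 in differentiated cells, beside 15.0% of all genes, and to 8 in undifferentiated cells, beside 27.3%, the 2 of undifferentiated cells alone being Pbx3 and Meis3. Of 10 Trithorax side genes, 9 had promoter H3K4me3 in both states, and 9 in differentiated and 10 in undifferentiated cells had H3K36me3 over at least 50% of the body. Kdm6a, an H3K27 demethylase, had a cover of 36.4% in differentiated and 67.1% in undifferentiated cells, and H3K4me1 at its promoter in differentiated cells alone. Of 16 Polycomb side genes, 15 had promoter H3K4me3 and 13 had H3K36me3 in both states. RUNX2 was assigned to 3 of the 16 in differentiated cells, beside 15.0% of all genes, and to 6 in undifferentiated cells, beside 27.3%. C/EBPβ was assigned to 4 in differentiated cells, beside 21.8%, and to 8 in undifferentiated cells, beside 27.7%. Ezh2, the H3K27 methyltransferase of Polycomb, had 0 RUNX2 peaks in differentiated and 2 in undifferentiated cells, and 0 and 1 C/EBPβ peaks. H3K27me3, the mark that Polycomb sets, was not analysed here.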

How the data were processed

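The submitters' processing notes name Bowtie, HOMER and the mm9 build, with versions and settings not given in the sources used here. The authors deposited 1 list of merged replicate peaks per antibody and state, with a score per peak. The score was 0 for all factor peaks and was used only to rank regions within a mark's own list. Input DNA was not analysed here, and the differentiated input was labelled with 100 nM 1,25(OH)2D3. Coordinates are 1-based on mm9 (NCBIM37) with GENCODE vM1, read with Python 3.11.15 and numpy 2.4.6. Hoxa3, annotated under 2 gene IDs, was joined. An overlap was at least 1 bp, and gene names of the lists absent from the annotation were matched by older RefSeq symbols (Kmt2a, Kmt2b, Kmt2d, Map2 and Spi1). Confidence intervals used scipy 1.17.1. Interval, nearest-TSS and motif steps were tested on simulated intervals. Named in full were Hox genes with a factor peak in the body or within 10 kb, with an H3K4me3 or H3K9Ac call or an H3K36me3 cover (by 25 points) that differed, and with the extremes of H3K36me3 per cluster. Some genes are not reported here. The genes and lists were chosen with earlier results of these data known.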

Additional observations from a re-analysis of the deposited data

How the results depend on the processing

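Read depth is unknown, replicates are merged, and only presence in a list was compared. No paired analysis was possible because each antibody and state has 1 merged list, and for the same reason no replicate could be left out. Alternatives moved no promoter or H3K36me3 count over all Hox genes by more than 1.5 times except as follows. With the upper 50% of scores in each list, H3K4me3 was at 0 Hox promoters in differentiated and 0 in undifferentiated cells, H4K5Ac at 15 in differentiated cells, and H3K36me3 at 3 in differentiated and 4 in undifferentiated cells. Hoxc genes with H3K36me3 in differentiated cells numbered 1 from the first to the last coding base, against 0 as reported. H3K4me3 in undifferentiated cells was at 1 promoter with 500 bp to each side, with the most upstream TSS only, and with at least 500 bp covered. The difference in H3K4me1 promoters, differentiated minus undifferentiated, was 4 and turned to -1 with 2500 bp, and was 0 with 500 bp and with at least 500 bp covered. Over all 4 clusters, cover as reported, with 10 kb added to each end and with the upper 50% of scores was 2.35, 2.02 and 0% for H3K4me3 in differentiated and 3.51, 3.02 and 0% in undifferentiated cells. It was 27.5, 24.5 and 21.5% for H3K9Ac in differentiated and 19.3, 16.8 and 15.3% in undifferentiated cells, and 39.6, 37.4 and 31.7% for H4K5Ac in differentiated and 55.6, 51.6 and 50.2% in undifferentiated cells. It was 49.2, 47.2 and 41.2% for H3K4me1 in differentiated and 49.8, 48.6 and 43.4% in undifferentiated cells, and 11.2, 9.63 and 4.98% for H3K36me3 in differentiated and 21.5, 20.3 and 5.23% in undifferentiated cells. With 50 kb added to each cluster, RUNX2 had 1 peak in differentiated and 8 in undifferentiated cells, and C/EBPβ had 8 in undifferentiated cells. With peaks counted within 10 kb of a gene body, RUNX2 was at 0 Hox genes and C/EBPβ at 3 in differentiated cells. Within 20 kb of a TSS, RUNX2 was at 0 Hox genes in differentiated and 13 in undifferentiated cells, and C/EBPβ at 4 and 11. By both of these rules 1 peak counts for every gene in reach, and the shares of all genes were not counted. The cause of these moves was not tested. C/EBPβ peaks of the clusters shared between states stayed at 2 with an overlap of more than 50% of a peak and with centres within 500 bp.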
